A study of Mus musculus with 30 samples.

Results

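The cytochrome P450 enzymes of families 1 and 2 were followed in mouse liver across 5 diets that differed in protein source and sulfur amino acid content. Members were all genes of the count table whose symbol is Cyp1 or Cyp2 followed by a subfamily letter and a number, which gave 35 of 14173 genes in 12 subfamilies. Male C57BL6/J mice, 6 months old at collection, were fed for 12 weeks and killed after a 4 h fast, and each diet is represented by 6 livers, 30 in all. The Cas-20% diet held 20% casein (0.57 g methionine and 0.41 g cysteine per 100 g), and Cas-5% held 5% casein (0.15 and 0.1 g). Soy-20% held 20% soy protein (0.22 and 0.22 g). Soy-20% + SAA was that soy diet with methionine and cysteine added (0.58 and 0.41 g), and Soy-10% held 11.5% soy (0.13 and 0.13 g). Casein-fed mice were first kept on Cas-20% and all soy-fed mice on Soy-20%, so each source had a common starting diet. Protein and sulfur amino acids fell together in Cas-5%, so their effects cannot be told apart within the casein diets.

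Cytochrome P450 enzymes are heme proteins of the endoplasmic reticulum that insert 1 oxygen atom into lipophilic substrates with electrons from P450 oxidoreductase. Families 1 and 2 hold much of the liver's capacity for drugs and other foreign chemicals, and also act on steroids, bile acids, arachidonic acid and vitamin D. Many are expressed mainly by pericentral hepatocytes, and in mice several differ between the sexes under the control of the growth hormone pattern. The genes lie in clusters of recent duplicates, and on GRCm38 (GENCODE M21) the table places 13 members, all of Cyp2c, on chromosome 19 between 39007019 and 44029208. A further 6 members, all of Cyp2d, lie on chromosome 15 between 82370527 and 82794294, 3 Cyp2j members on chromosome 4 between 96516138 and 96664154, and 9 members on chromosome 7, among them all of Cyp2a.

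Promoters are shown for near copies whose counts differed in direction (Cyp2a4 and Cyp2a5) or in size of change (Cyp2c68, Cyp2c69 and Cyp2c40), so that the closeness of their sequences can be seen. RefSeq start-site windows of 300 bases on GRCm38.p6 were matched by symbol for 29 of the 35 members. Capitals mark any match, on either strand, to the letters GCGTG (the core bound by AHR with ARNT), AGGTCA (a core bound by nuclear receptors), TTCNNNGAA (a STAT site) or ATCAAT (a core bound by ONECUT1). The windows of Cyp2a4 (chr7:26306942-26307241, plus strand) and Cyp2a5 (chr7:26835089-26835388, plus strand) were 97.7% identical. Both run past the gene start of the count table (26307169 for Cyp2a4 and 26835305 for Cyp2a5). The marked TGACCT lies inside the gene in each, not before it.
Cyp2a4: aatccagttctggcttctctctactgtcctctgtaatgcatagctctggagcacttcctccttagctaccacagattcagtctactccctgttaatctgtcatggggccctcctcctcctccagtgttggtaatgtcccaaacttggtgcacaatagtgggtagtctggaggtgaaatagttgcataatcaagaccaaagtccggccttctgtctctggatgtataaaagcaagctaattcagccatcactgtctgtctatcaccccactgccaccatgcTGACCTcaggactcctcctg
Cyp2a5: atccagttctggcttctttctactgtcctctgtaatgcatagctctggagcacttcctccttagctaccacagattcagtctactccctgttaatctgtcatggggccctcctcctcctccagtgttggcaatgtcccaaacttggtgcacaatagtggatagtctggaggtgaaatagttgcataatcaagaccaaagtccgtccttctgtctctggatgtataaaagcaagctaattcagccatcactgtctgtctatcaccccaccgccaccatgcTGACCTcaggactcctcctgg
The windows of Cyp2c68 (chr19:39741052-39741351, minus strand) and Cyp2c69 (chr19:39886720-39887019, minus strand) were 91.0% identical, and that of Cyp2c40 (chr19:39812765-39813064, minus strand) was 79.0% identical to Cyp2c69. Identity was taken from end to end, so a shift between windows counts as differences. The ATTGAT match starts at base 273 in Cyp2c40, 243 in Cyp2c69 and 240 in Cyp2c68. The 79.0% is therefore lowered by the shift, and the percentages do not rank these copies by closeness.
Cyp2c68: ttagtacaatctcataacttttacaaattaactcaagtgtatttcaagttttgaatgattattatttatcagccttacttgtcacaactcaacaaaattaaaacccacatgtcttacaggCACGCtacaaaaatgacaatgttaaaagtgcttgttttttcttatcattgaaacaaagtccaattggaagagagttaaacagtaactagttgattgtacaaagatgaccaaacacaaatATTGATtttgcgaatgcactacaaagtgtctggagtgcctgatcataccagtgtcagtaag
Cyp2c69: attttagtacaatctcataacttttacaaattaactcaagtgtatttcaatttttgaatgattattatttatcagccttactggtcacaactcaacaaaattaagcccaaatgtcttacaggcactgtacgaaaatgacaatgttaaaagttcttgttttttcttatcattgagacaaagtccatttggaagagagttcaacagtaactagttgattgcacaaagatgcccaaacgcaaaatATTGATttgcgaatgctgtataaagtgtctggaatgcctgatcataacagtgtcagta
Cyp2c40: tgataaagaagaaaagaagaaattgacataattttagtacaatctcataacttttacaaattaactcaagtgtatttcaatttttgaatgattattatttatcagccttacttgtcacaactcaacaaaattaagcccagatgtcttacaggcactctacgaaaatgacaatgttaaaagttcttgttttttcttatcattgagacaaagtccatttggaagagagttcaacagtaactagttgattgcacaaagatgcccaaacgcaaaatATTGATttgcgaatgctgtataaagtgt
ATCAAT or its reverse complement was found in 7 of the 29 member windows, those of Cyp2c37, Cyp2c40, Cyp2c50, Cyp2c67, Cyp2c68, Cyp2c69 and Cyp1a2, and in 7.54% of all 32851 windows. All of these but Cyp1a2 are Cyp2c genes of the chromosome 19 cluster with similar windows (86.3% identity for Cyp2c37 and Cyp2c50). Their matches are therefore not independent, and the count is not read as an excess. The other letters were found in 5 members for GCGTG (32.4% of all windows), 8 members for AGGTCA (16.3%) and 0 members for TTCNNNGAA (8.3%). These are descriptions of letters in the windows, not of bound sites.

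Libraries held 7694015 to 14565542 counts, and the members took between 0.725% and 1.11% of them. Hepatocyte markers (5 of 6 listed were in the table) summed to between 679550 and 914940 normalized counts in every liver. Pancreatic acinar markers summed to 5931 in 1 Soy-10% liver and to at most 5.8 in the other diets. In libraries 3 to 6 of Soy-20% + SAA, expression relative to the mean of all libraries rose with the GC content of transcript ends, with slopes of 0.0571 to 0.196 log2 per 10% GC, against −0.0587 to 0.0247 in all libraries of Cas-20%, Cas-5%, Soy-20% and Soy-10%. Calls of members in soy restriction and in the difference of effects are therefore also given without these libraries. With CPM (counts scaled to the library total) in place of size factors, the median gene tested moved from 0.00 to 0.20 on the log2 scale in casein restriction and from −0.01 to 0.05 in soy restriction.

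Values below are normalized counts, which are raw counts divided by a library size factor. The reads come from the 3′ end of transcripts, so they are not scaled by length and are compared here between diets, not between genes. Fold changes are log2 values from edgeR's quasi-likelihood test over all genes, ± SE, and a gene is called at a Benjamini-Hochberg adjusted p of 0.05 or less. The SE is an approximation, the absolute log2 fold change divided by the square root of that test's F statistic. Over all 5 diets, 26 of the 31 members tested were called, against 43.4% of all genes tested. The 26 include Cyp2c69 and Cyp2a4, which passed the filter on low counts only in pairs of diets with Cas-5%, where they were highest. For these members the call is a description. Members not called were Cyp2a22, Cyp2b9, Cyp2c23, Cyp2c39 and Cyp2d9.

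**Figure D1:**
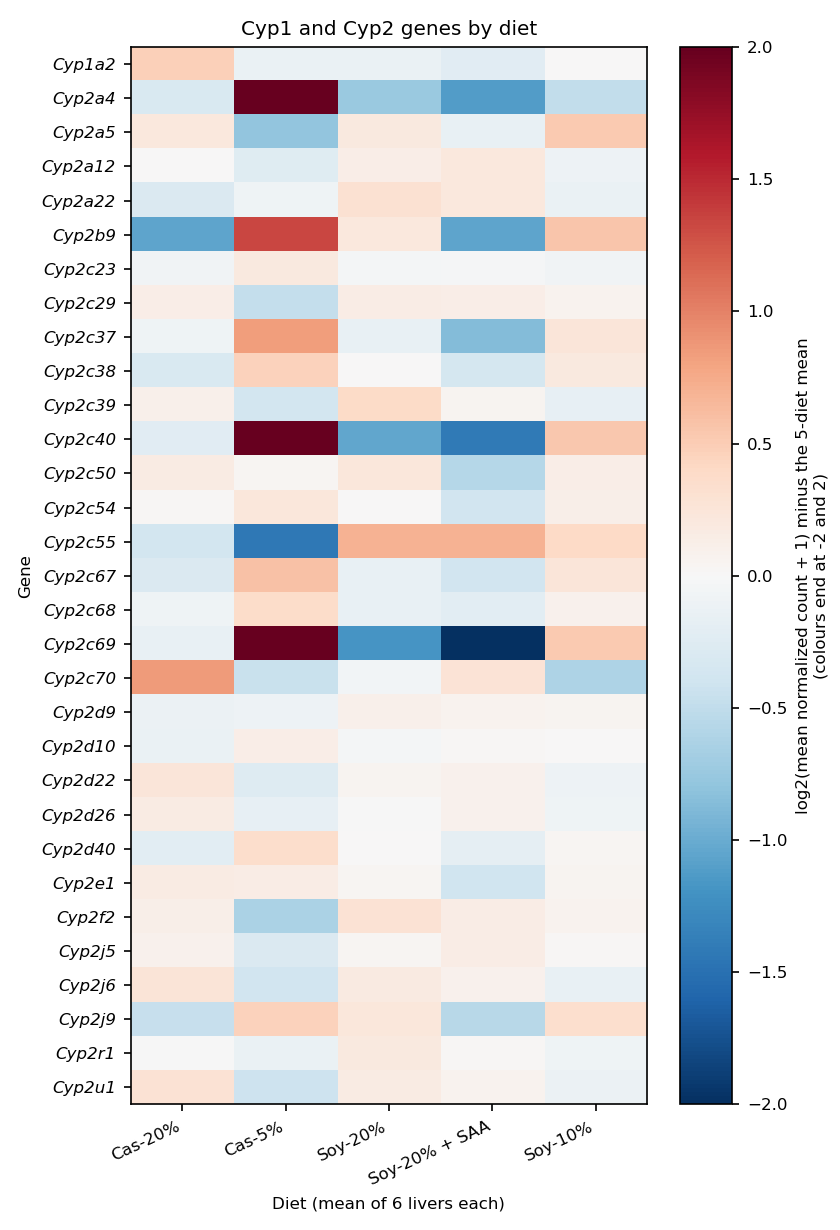
Mean expression of the 31 members with a mean of at least 10 normalized counts in 1 diet (rows) in 5 diets (columns, 6 livers each), as log2(mean + 1) minus the mean over diets. Cyp2c69, Cyp2c40 and Cyp2a4 are darkest in Cas-5%, while most rows stay near 0.

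Casein restriction, Cas-5% against Cas-20%, asked how the liver responds when casein is cut. It moved the members in both directions. Of 29 members tested, 10 were higher, against 11.6% of all genes, and 11 were lower, against 13.3%. In 11 members the diets did not overlap, against 12.9% of all genes. The filter on low counts asks for 6 livers above a minimum, and for 4 called members the lower diet did not have them: Cyp2c69 (3 Cas-20% livers), Cyp2a4 (1), Cyp2c40 (5) and Cyp2c55 (2 Cas-5% livers). Such members were kept only with the livers of the diet in which they were high, so their values are given as a description with no p. Of the 24 members whose lower diet passed the filter alone, 7 were higher, led by Cyp2j9, Cyp2c37 and Cyp2c67. A further 10 were lower, led by Cyp2c70, Cyp2a5 and Cyp2f2, and 9 did not overlap. All genes were not counted in this way, here or below.

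Cyp2c69, a Cyp2c gene that is female-biased in mouse liver, was measured at 17.0, 3.0, 9.2, 11.6, 19.9 and 10.0 normalized counts in the Cas-20% livers and at 138.5, 159.5, 184.3, 168.1, 56.1 and 113.5 in the Cas-5% livers. The lowest Cas-5% liver lay above the highest Cas-20% liver. The log2 fold change was 3.52 ± 0.32 (n = 6 per diet). Cyp2c40, another female-biased member, was between 10.1 and 29.9 in Cas-20% and between 61.7 and 131.8 in Cas-5%. Again no livers overlapped, and the log2 fold change was 2.41 ± 0.23.

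Cyp2a4, a female-biased steroid hydroxylase, was at 2.0, 2.0, 2.0, 0.0, 13.9 and 4.4 in Cas-20% and at 45.5, 0.0, 98.0, 43.2, 20.8 and 26.4 in Cas-5%. One Cas-5% liver was at 0, so the groups overlapped, and the log2 fold change was 3.26 ± 0.71. Without Cas-20% liver 5, the highest of that diet, it was 4.20. Its neighbour Cyp2a5, which oxidizes coumarin and nicotine, went the other way. Cyp2a5 was between 1307 and 2737 in Cas-20% and between 736.9 and 1396 in Cas-5%, a log2 fold change of −0.99 ± 0.18 (edgeR adjusted p = 0.000625). The summed count of both genes was 1990 ± 521 (SD) in Cas-20% and 1029 ± 262 in Cas-5%, a sum that does not depend on how reads were divided between them.

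**Figure D2:**
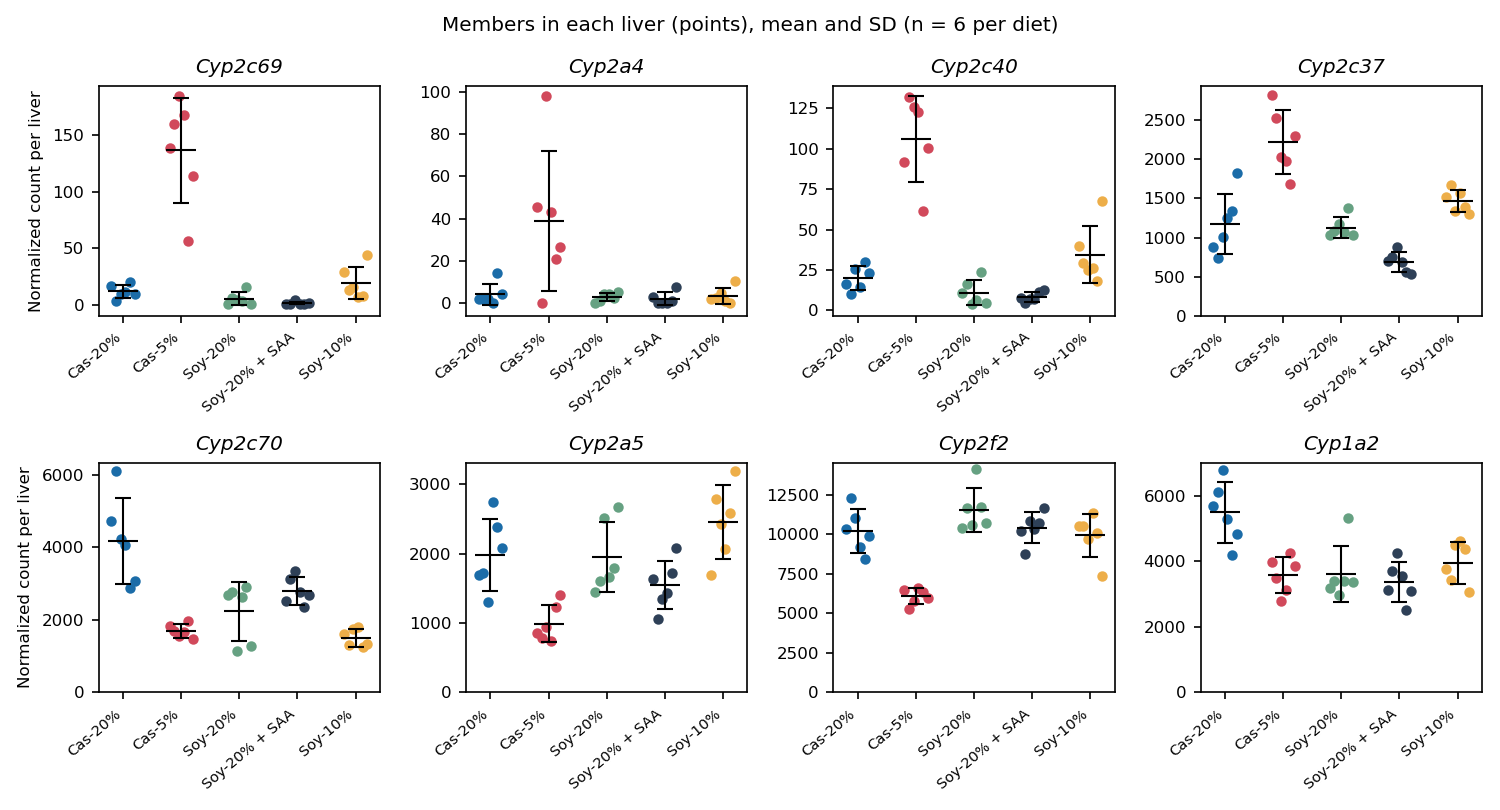
Normalized counts of 8 members in each of 30 livers (points), with mean and SD for each diet. The Cas-5% points of Cyp2c69 and Cyp2c40 lie above all Cas-20% points, and those of Cyp2f2 lie below them.

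Within Cyp2c, 7 further members were called besides Cyp2c69 and Cyp2c40. Cyp2c37, a pericentral arachidonic acid oxidase, was 1172 ± 389 in Cas-20% and 2224 ± 415 in Cas-5% (log2 fold change 0.94 ± 0.18, edgeR adjusted p = 0.000937). Cyp2c67 was between 943.0 and 1373 in Cas-20% and between 1656 and 2499 in Cas-5%, with no overlap (log2 fold change 0.89 ± 0.11). Cyp2c38 (0.78 ± 0.24) and Cyp2c68 (0.47 ± 0.09) were also higher. Cyp2c70, which makes the muricholic acids of mouse bile, fell from 4179 ± 1178 to 1694 ± 189 with no overlap, a log2 fold change of −1.29 ± 0.15 (edgeR adjusted p = 9.63e-06). Cyp2c29, a member induced by phenobarbital, was lower by −0.59 ± 0.13 on the log2 scale, and Cyp2c55 by −1.10 ± 0.36. Cyp2c55 lost its call in 9 of 18 alternatives. These were the GC slope as a covariate, the replicate number as a block and leaving out each of 7 single livers (Cas-20% livers 1, 3 and 4 and Cas-5% livers 2 to 5). Its log2 fold change ran from −1.36 to −0.92 over all alternatives, and the edgeR adjusted p reached 0.0722. Cyp2c38 lost its call with DESeq2, with the GC slope and without Cas-20% livers 1, 2 or 3 or Cas-5% liver 3 (adjusted p up to 0.0601).

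The Cyp2c40, Cyp2c67, Cyp2c68 and Cyp2c69 transcripts share sequence at their 3′ ends. Of the 50-base words in the last 300 bases, 53.8% of those of Cyp2c40, 45.4% of Cyp2c67, 32.3% of Cyp2c68 and 23.1% of Cyp2c69 also occur in another gene. Their summed count was 1994 ± 232 in Cas-20% and 3471 ± 411 in Cas-5%, which is 174% of the control. Cyp2c67 and Cyp2c68 made up most of that sum, so single values of Cyp2c40 and Cyp2c69 are uncertain to the extent that reads were placed between copies.

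**Figure D3:**
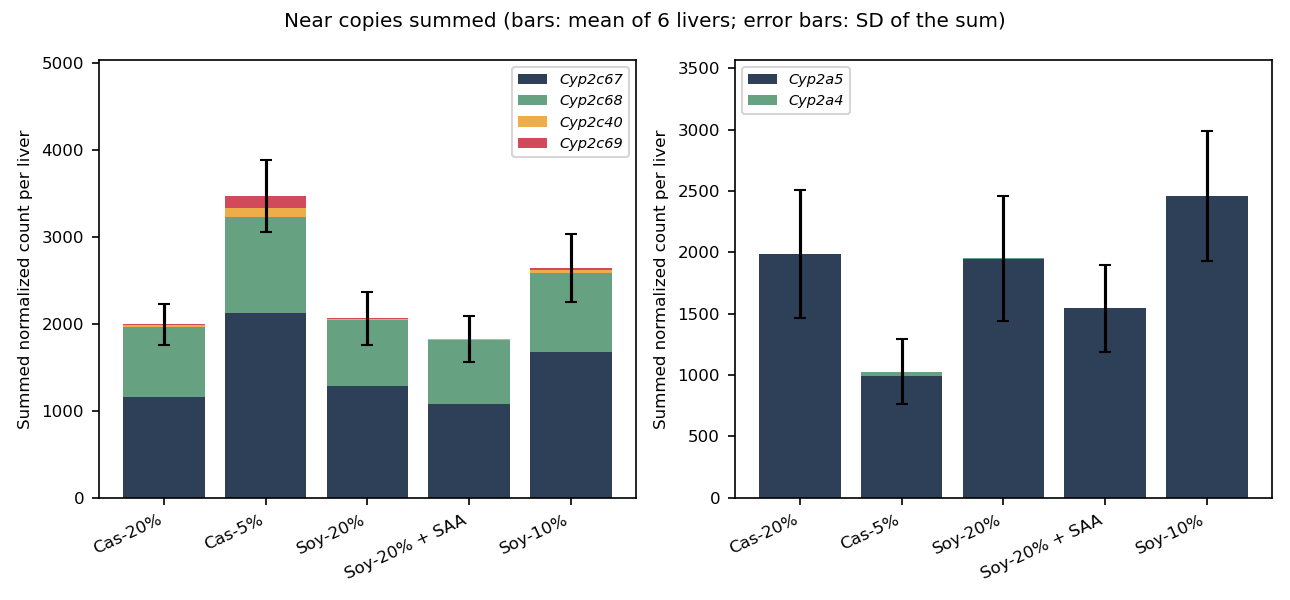
Normalized counts of near copies, stacked by gene (bars: mean of 6 livers, error bars: SD of the sum). The Cyp2c sum is largest in Cas-5%, and the sum of Cyp2a5 and Cyp2a4 is smallest there.

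Other members fell with casein restriction. Cyp2f2, a periportal enzyme that activates naphthalene, was between 8411 and 12310.5 in Cas-20% and between 5253 and 6580 in Cas-5%, a log2 fold change of −0.73 ± 0.09 (edgeR adjusted p = 1.66e-05). Cyp1a2, the caffeine oxidase controlled by AHR, was between 4203 and 6812 in Cas-20% and between 2784 and 4256 in Cas-5% (log2 fold change −0.61 ± 0.12, edgeR adjusted p = 0.00121). Cyp2u1 was lower by −0.69 ± 0.16 on the log2 scale. The arachidonic acid epoxygenases Cyp2j6 (−0.62 ± 0.11) and Cyp2j5 (−0.36 ± 0.07) were lower, and Cyp2j9 was higher (0.94 ± 0.16), each with no overlap. In Cyp2d, Cyp2d40 (0.59 ± 0.13) and Cyp2d10 (0.28 ± 0.07) were higher and Cyp2d22 (−0.49 ± 0.07) and Cyp2d26 (−0.32 ± 0.08) were lower, while the summed Cyp2d count was 99.4% of the control. Cyp2e1, the ethanol and acetaminophen oxidase and the member with the highest counts, was 29910 ± 7532 in Cas-20% and 29687 ± 1974 in Cas-5% and was not called (log2 fold change 0.00366 ± 0.13).

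Markers of liver zones and blood also moved in this comparison. The summed periportal markers (8 of 8 in the table) ran from 40777 to 57563 in Cas-20% and from 23057 to 33819 in Cas-5%. Of these 8, 5 were lower (62.5%, against 13.3% of all genes). The pericentral markers outside the P450 genes ran from 19564 to 27708 and from 12785 to 15005. Of 8, 1 was higher (12.5%, near the 11.6% of all genes) and 4 were lower (50%, against 13.3%). Red blood cell markers ran from 15728 to 34944 and from 11503 to 19812, with 4 of 5 lower. Under soy restriction 3 pericentral markers were higher (37.5%, against 8.51% of all genes) and 5 lower (62.5%, against 8.47%). Periportal markers were lower in 2 of 8 (25%), and 0 of 5 red blood cell markers were called. In Cas-20% against Soy-20% + SAA, 5 periportal (62.5%), 4 red blood cell (80%) and 2 pericentral markers (25%) were higher, against 1.42% of all genes. In bulk liver, fewer cells of a type and less RNA per cell cannot be told apart, and the part of zonation or blood in these results was not tested.

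Soy restriction, Soy-10% against Soy-20% + SAA, lowered methionine from 0.58 to 0.13 g per 100 g, and protein from 20% to 11.5%. The members that moved were mostly of Cyp2c, led by Cyp2c40, Cyp2c37 and Cyp2c70. Of 27 tested, 6 were higher, against 8.51% of all genes, and 1 was lower, against 8.47%. Livers of the diets did not overlap in 4 members, against 6.22% of all genes. Cyp2c40 passed the filter through Soy-10%. Of the 25 members whose lower diet passed alone, 5 were higher, 1 was lower and 3 did not overlap.

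Cyp2c40 was at 7.6, 4.4, 6.8, 6.7, 11.2 and 12.3 in Soy-20% + SAA and at 39.6, 29.1, 25.2, 26.1, 18.2 and 67.4 in Soy-10%. Every Soy-10% liver was above every control liver (log2 fold change 2.02 ± 0.34). Only 2 livers of Soy-20% + SAA were above the filter minimum, so this value too is a description. Cyp2c37 was between 532.0 and 877.1 in Soy-20% + SAA and between 1305 and 1675 in Soy-10% (1.10 ± 0.11, edgeR adjusted p = 0.000134). Cyp2c70 was between 2354 and 3357 and between 1241 and 1810 (−0.90 ± 0.11, edgeR adjusted p = 0.000354). Cyp2c37 and Cyp2c70 had the same directions under casein restriction, in other livers. Cyp2c67 was higher (0.63 ± 0.13), as was Cyp2a5 (0.67 ± 0.16), which had been lower under casein restriction. Without libraries 3 to 6 of Soy-20% + SAA the log2 fold change was 2.46 for Cyp2c40, 1.01 for Cyp2c37, −0.92 for Cyp2c70, 0.82 for Cyp2c67 and 0.86 for Cyp2a5. Apart from Cyp2c40, whose value stays a description, each was still called.

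The remaining calls of soy restriction were less firm. Cyp2c54 (0.50 ± 0.16) lost its call in 11 of 19 alternatives: without any 1 of the 6 Soy-10% livers, without Soy-20% + SAA livers 4, 5 or 6, without libraries 3 to 6 of that diet together (0.16) and with the GC slope as a covariate (0.18). Cyp2j9 (0.92 ± 0.18) lost its call in 2 alternatives, without libraries 3 to 6 (0.45) and with the GC slope (0.52). Cyp2j9 was at 46.8 and 48.6 in libraries 1 and 2 of that diet and at 26.2 to 29.7 in libraries 3 to 6. Cyp2c50 was at 4915 and 6105 in libraries 1 and 2 and at 2014 to 3938 in libraries 3 to 6. Cyp2e1 was at 25513 and 31639 and at 13597 to 20747. In these 3 members every one of libraries 3 to 6 lay below libraries 1 and 2, and in 7 members every one lay above. All genes were not counted for this split of libraries, so the counts cannot be read as a trait of the members. The part of the GC trend in these values was not tested beyond the covariate.

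**Figure D4:**
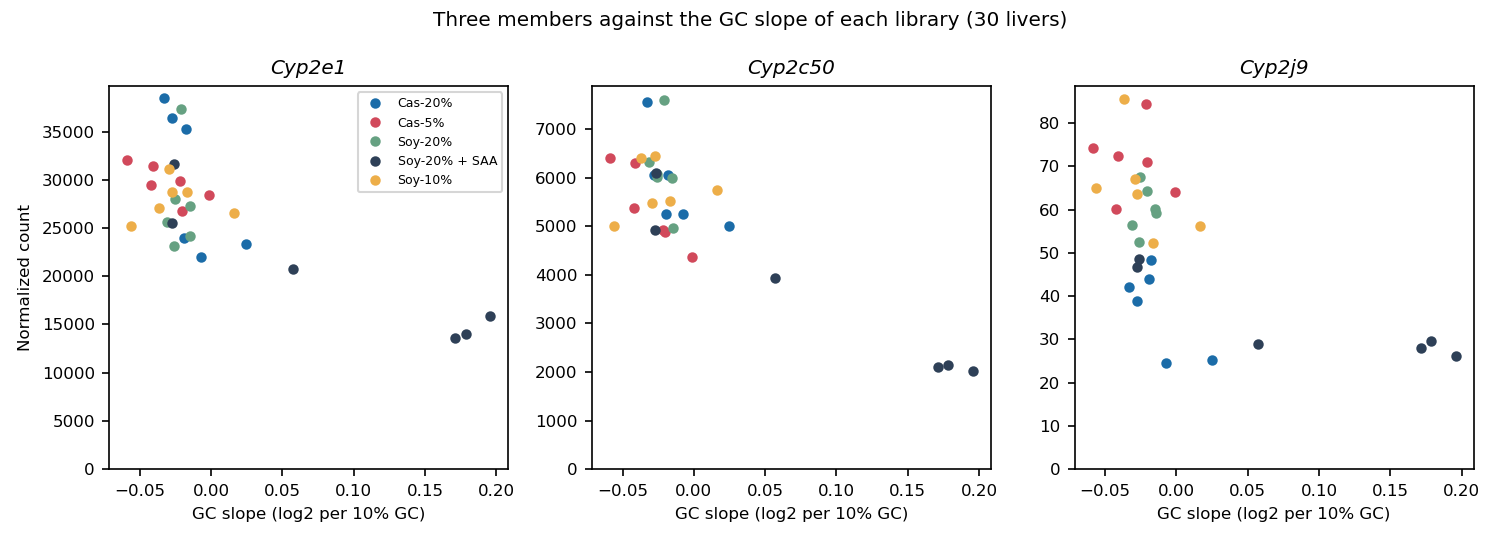
Normalized counts of Cyp2e1, Cyp2c50 and Cyp2j9 against the slope of each library's expression on GC content (30 livers, colours: diets). The 4 Soy-20% + SAA libraries with the highest slopes have the lowest Cyp2e1 and Cyp2c50 counts.

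The difference of both effects, casein minus soy, tested whether the effects of the restrictions differed. Protein fell from 20% to 5% with casein and from 20% to 11.5% with soy. Protein source and the size of the cut therefore cannot be told apart here. Of 31 members tested, 4 differed, all lower under casein restriction relative to soy, against 5.49% of all genes lower and 3.2% higher. Cyp2a5 differed by −1.66 ± 0.26 on the log2 scale (edgeR adjusted p = 0.000459), Cyp1a2 by −0.84 ± 0.18 (0.0078), Cyp2f2 by −0.67 ± 0.14 (0.00462) and Cyp2c29 by −0.55 ± 0.17 (0.04). Without libraries 3 to 6 of Soy-20% + SAA the differences were −1.86, −0.82, −0.80 and −0.41, and Cyp2c29 was not called. Cyp2c29 lost its call in 16 of 31 alternatives, most of which left out 1 liver. Under soy restriction Cyp2f2 (−0.07 ± 0.10), Cyp1a2 (0.23 ± 0.13) and Cyp2c29 (−0.05 ± 0.09) were not called.

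**Figure D5:**
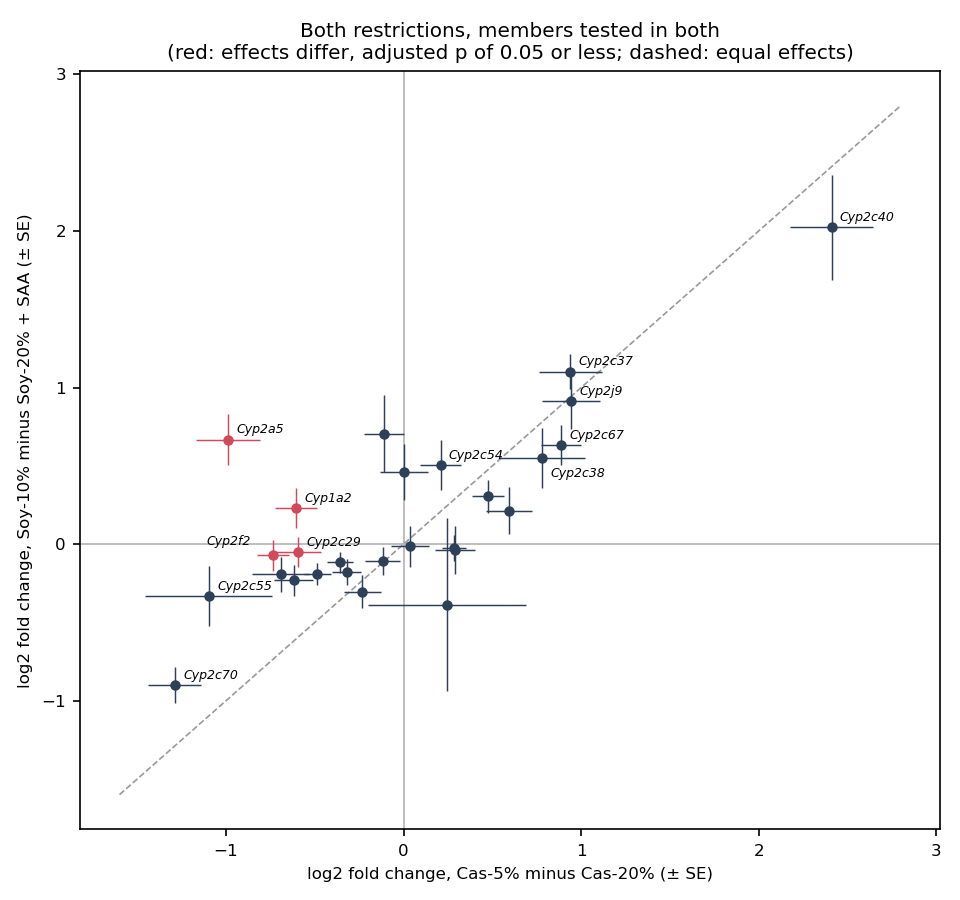
Log2 fold change (± SE) under casein restriction (x) and soy restriction (y) for members tested in both. The 4 red points are members whose effects differed, and Cyp2j9 lies on the dashed line of equal effects.

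The restricted diets were compared directly, Cas-5% against Soy-10%. They differed in source and in protein content, 5% against 11.5%, which cannot be told apart here. Of 30 members tested, 5 were higher in Cas-5%, against 4.59% of all genes, and 5 were lower, against 6.14%. In 6 members the diets did not overlap, against 5.86% of all genes. For Cyp2a4, Cyp2c69 and Cyp2c55 the lower diet did not pass the filter alone, so their values below are descriptions. Of the 25 members whose lower diet passed alone, 3 were higher, 4 were lower and 4 did not overlap. Cyp2a4 (3.45 ± 0.68), Cyp2c69 (2.79 ± 0.34), Cyp2c40 (1.62 ± 0.24), Cyp2c37 (0.62 ± 0.10) and Cyp2c67 (0.36 ± 0.11) were higher in Cas-5%. Cyp2c55 (−1.87 ± 0.28), Cyp2a5 (−1.29 ± 0.16), Cyp2f2 (−0.69 ± 0.09), Cyp2c29 (−0.54 ± 0.12) and Cyp2j5 (−0.30 ± 0.07) were lower. Cyp2c67 lost its call without each of 9 single livers (Cas-5% livers 1 to 4 and 6, Soy-10% livers 2, 3, 5 and 6) and in the fit of all 30 libraries. Cyp2a4 was at 4.14 without Soy-10% liver 6.

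The control diets differed less. Cas-20% against Soy-20% + SAA called 3 members higher, against 1.42% of all genes, and 1 lower, against 1.01%. Cyp2c40 (1.24 ± 0.30), Cyp2c37 (0.78 ± 0.19) and Cyp1a2 (0.71 ± 0.13) were higher in Cas-20% and Cyp2c55 (−1.10 ± 0.26) was lower. For Cyp2c40 and Cyp2c55 the lower diet did not pass the filter alone. None of these 4 was called with the GC slope as a covariate or without libraries 3 to 6 of Soy-20% + SAA, where their log2 fold changes were 1.67, 0.69, 0.68 and −1.11. Their calls were also lost without many single livers, in 9 of 19 alternatives for Cyp1a2, 12 for Cyp2c40 and 13 each for Cyp2c37 and Cyp2c55, while the values ran from 1.07 to 1.67 for Cyp2c40, 0.52 to 0.88 for Cyp2c37, 0.63 to 0.78 for Cyp1a2 and −1.20 to −0.92 for Cyp2c55. Soy-10% against Soy-20% called Cyp2c37 alone, higher by 0.38 ± 0.08 (edgeR adjusted p = 0.0341), against 0.319% of all genes, and this call was lost in 10 of 18 alternatives, among them the fit of all 30 libraries. Soy-20% against Soy-20% + SAA called 0 members by edgeR, against 0.00838% of all genes, with 4 members at an unadjusted p under 0.05 and 3 called by DESeq2.

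The female-biased members Cyp2c69, Cyp2c40 and Cyp2a4 had their lowest means in Soy-20% + SAA. Cyp2c69 was 5.25 ± 5.64 in Soy-20%, 1.56 ± 1.16 in Soy-20% + SAA and 19.5 ± 14.3 in Soy-10%, and it passed the low count filter only in comparisons that include Cas-5%, as did Cyp2a4. The 6 livers of Soy-20% + SAA lay between 0.93 and 3.87 and those of Soy-10% between 7.30 and 43.7, so these diets did not overlap, although no test was made of them. Cyp2a4 was 2.75 ± 2.07, 1.92 ± 3.05 and 3.46 ± 3.79 in these 3 diets, levels of a few counts that overlap throughout. Cyp2b9 was at 97.0, 2.6, 6.8, 15.4, 53.7 and 26.4 in Cas-5%, where livers 1 and 5 stood highest.

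Cyp2c55 had its lower means on casein and its higher means on soy. It was 18.4 ± 6.99 in Cas-20% and 8.29 ± 4.43 in Cas-5%, against 39.6 ± 12.6 in Soy-20%, 39.7 ± 8.86 in Soy-20% + SAA and 31.8 ± 7.95 in Soy-10%. The highest Cas-5% liver (15.0) lay below the lowest Soy-10% liver (20.3). Cyp1a2 was highest in Cas-20% (5499 ± 930) and lay between means of 3375 and 3961 in the other diets, whose livers overlapped. Cyp2j9 was high in 3 diets, at 71.1 ± 8.50 in Cas-5%, 60.0 ± 5.35 in Soy-20% and 65.0 ± 11.5 in Soy-10%. Its means were lower in the diets with the most methionine, at 37.2 ± 9.97 in Cas-20% and 34.7 ± 10.1 in Soy-20% + SAA. In Soy-20% + SAA, libraries 1 and 2 were at 46.8 and 48.6 and libraries 3 to 6 at 26.2 to 29.7. The call under soy restriction was lost without libraries 3 to 6 (log2 fold change 0.45). Soy-20% against Soy-20% + SAA was not called (edgeR adjusted p = 0.0555). Cyp2f2 was between means of 9939 and 11536 in every diet but Cas-5%.

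Members of Cyp2d and Cyp2j that were called under casein restriction had the following levels. Cyp2d10 was 4921 ± 255 in Cas-20% and 5934 ± 442 in Cas-5%, and between means of 5263 and 5480 on soy. Cyp2d22 fell from 1165 ± 93.6 to 824 ± 69.6 and Cyp2d26 from 5933 ± 686 to 4705 ± 393. Cyp2j5 was 8153 ± 467 in Cas-20% and 6303 ± 635 in Cas-5%, and Cyp2j6 was 537 ± 27.0 and 346 ± 73.1. The summed near copies Cyp2c38 and Cyp2c39 were 168% of Cas-20% in Cas-5% and 145% of Soy-20% + SAA in Soy-10%, and nearly all of that sum was Cyp2c38. The sum of Cyp2c37, Cyp2c50 and Cyp2c54 was 109% of the control in Cas-5% and 166% in Soy-10%, where Cyp2c50 (log2 fold change 0.71 ± 0.25, not called) fell to 0.06 without libraries 3 to 6 of Soy-20% + SAA.

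The level of each subfamily was also summed. Cyp1a in Cas-5% was 65.1% of Cas-20%, Cyp2a 72.9%, Cyp2f 59.5%, Cyp2j 77.0%, Cyp2c 92.7% and Cyp2e 99.3%. In Soy-10%, against Soy-20% + SAA, Cyp1a was 118%, Cyp2a 102%, Cyp2c 113%, Cyp2d 96.3%, Cyp2e 138%, Cyp2f 95.3% and Cyp2j 92.4%. Against libraries 1 and 2 of Soy-20% + SAA alone, an alternative chosen after the values were seen, the Soy-10% totals were 97.6% for Cyp2e, 125% for Cyp2a, 102% for Cyp2c and Cyp2d, 105% for Cyp2f, 96.3% for Cyp2j and 116% for Cyp1a, so the directions for Cyp2e, Cyp2d and Cyp2f turned. By CPM the casein values were 106% for Cyp2c, 113% for Cyp2d, 113% for Cyp2e and 105% for Cyp2r (91.3% by size factors), so the directions of these 4 depend on the scaling, as does that of Cyp2d in soy (100.5%).

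Members that varied most between livers of a diet were of low count. Cyp2b9, a female-biased enzyme induced by barbiturates in its subfamily, ran from 0 to 97.0 over the 30 livers and its within-diet coefficient of variation had a median of 149%. Cyp2a22 ran from 2.0 to 96.9 (median 78.3%). In contrast, the median was 6.93% for Cyp2j5, 7.44% for Cyp2d10 and 8.44% for Cyp2d22. Cyp2c39 ran from 2.6 to 20.1, Cyp2c23 from 2372 to 5027, Cyp2a12 from 2539 to 5199, Cyp2d9 from 7264 to 14138 and the vitamin D 25-hydroxylase Cyp2r1 from 119 to 198. Cyp1a1 (0 to 22.8), Cyp1b1 (0.95 to 8.7), Cyp2d12 (0 to 8.9) and Cyp2g1 (0.96 to 14.5) passed the low count filter in no comparison.

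Genes that serve or control these enzymes were read from lists, and shares of a list are set beside those of all genes (11.6% higher and 13.3% lower under casein restriction, 8.51% and 8.47% under soy restriction, 4.59% and 6.14% between the restricted diets). Their soy restriction values include libraries 3 to 6 of Soy-20% + SAA and are not given apart from the GC trend. Soy-10% against Soy-20%, a control with less methionine, called 103 of 11897 genes. Among them were 0 of 12 P450 partners, 0 of 20 receptors and factors, 0 of 6 AHR targets, 1 of 17 CAR and PXR targets and 1 of 15 male-biased genes. Por, which supplies electrons to every P450 here, was not called under casein (0.07 ± 0.20) or soy restriction (−0.13 ± 0.15). Of 12 genes of P450 partners and heme supply, 2 were higher (16.7%, against 11.6% of all genes) and 4 lower (33.3%, against 13.3%) under casein restriction, led by Cyb5r3 (−0.996 ± 0.10), Pgrmc2 (−0.75 ± 0.09), Blvrb (0.73 ± 0.09) and Hmox2 (0.34 ± 0.09), and 3 were higher and 3 lower under soy restriction (25% each, against 8.51% and 8.47%), again with Cyb5r3 (−0.68 ± 0.11), Pgrmc2 (−0.61 ± 0.15) and Blvrb (0.51 ± 0.09). Alas1, the first enzyme of heme synthesis, was higher under soy (1.06 ± 0.30) and not called under casein (−0.63 ± 0.49).

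Among 20 receptors and factors tested, 4 were higher (20%, against 11.6% of all genes) and 5 lower (25%, against 13.3%) under casein restriction. Ahr (0.70 ± 0.11), Nr1i3, which encodes CAR (0.79 ± 0.20), and Hnf4a (0.27 ± 0.06) were higher, Cebpa (−0.56 ± 0.07), Arnt (−0.55 ± 0.09) and Dbp (−1.43 ± 0.25) were lower, and Nr1i2, which encodes PXR (0.09 ± 0.08), was not called. Under soy restriction 3 were higher and 4 lower (15% and 20%, against 8.51% and 8.47%), with Cebpb higher (0.92 ± 0.16), Ppara (−0.52 ± 0.11) and Nr1i2 (−0.36 ± 0.10) lower, and Ahr (0.39 ± 0.14), Nr1i3 (0.15 ± 0.11) and Hnf4a (0.15 ± 0.06) not called. Of 6 AHR target genes tested, 1 was higher under casein restriction (16.7%, near the 11.6% of all genes: Slc7a5, 1.67 ± 0.32) and 2 under soy restriction (33.3%, against 8.51%: Gsta2, 1.03 ± 0.14, and Ugt1a6a, 0.73 ± 0.18). Of 17 CAR and PXR targets, 5 were higher (29.4%, against 11.6%) and 4 lower (23.5%, against 13.3%) under casein restriction, among them Gadd45b (2.96 ± 0.35), Cyp3a11 (1.06 ± 0.13), Ugt2b35 (0.66 ± 0.10) and Gstm2 (−1.10 ± 0.11), and 5 were higher (29.4%, against 8.51%) and 1 lower (5.88%, against 8.47%) under soy restriction, among them Ugt2b35 (0.52 ± 0.08), Gstm1 (0.51 ± 0.09) and Slco1a4 (−0.79 ± 0.15). Between the restricted diets 2 of these 17 targets were higher (11.8%, against 4.59%) and 8 lower (47.1%, against 6.14%) in Cas-5%, with Cyp3a11 (−1.35 ± 0.10) and Ces2a (−1.31 ± 0.09) lower.

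Of 11 growth hormone pathway genes tested, 2 were lower under casein restriction (18.2%, near the 13.3% of all genes), Ghr (−0.49 ± 0.08) and Igf1 (−0.35 ± 0.08), while under soy restriction edgeR called 0, with 1 at an unadjusted p under 0.05. Between the restricted diets Onecut1 was lower in Cas-5% (−1.67 ± 0.48). Of 15 male-biased genes outside these families, 1 was higher (6.67%, against 11.6% of all genes) and 6 were lower (40%, against 13.3%) under casein restriction, among them Cyp4a12b (−3.40 ± 0.31) Cyp4a12a (−1.06 ± 0.16), Selenbp2 (−2.05 ± 0.50) and Serpina3k (−0.66 ± 0.16). Of 18 female-biased genes listed, 9 were in the table and 6 were tested, and of these 0 were higher and 3 were lower, Ntrk2 (−2.98 ± 0.37), Cyp17a1 (−1.70 ± 0.29) and Atp6v0d2 (−0.89 ± 0.30), 50% against 13.3% of all genes. Under soy restriction 1 male-biased gene was higher (Gstp1, 0.93 ± 0.22) and 1 lower (Cyp4a12b, −2.07 ± 0.21) of 15 (6.67% each, below the 8.51% and 8.47% of all genes), and 1 female-biased gene was lower of 5 (Atp6v0d2, −1.79 ± 0.30).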

How the data were processed

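The members, lists and tests were chosen with earlier results of these data known. Liver RNA of 30 mice was sequenced by the authors with the Lexogen QuantSeq 3′ kit and processed with its FWD pipeline on the Bluebee platform (GRCm38, mm10 per the labels). The read length is given differently in the sources used here, and the aligner is not given in the sources used here. The authors deposited raw counts per gene and a normalized signal, made by dividing counts by a DESeq2 size factor (R 4.0.3, DESeq2 1.30 per the labels). The signal gave the normalized counts and summed totals, and the raw counts gave all tests.

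Livers were grouped by diet as labelled. Raw counts of the diets compared were filtered with filterByExpr, TMM normalized and tested with edgeR 4.0.16 (R 4.3.3) by the quasi-likelihood F test, with Benjamini-Hochberg adjustment over all genes tested. Alternatives were DESeq2 1.42.0, RLE normalization, no filter, 1 fit of all 30 libraries, a GC slope covariate (last 200 bases of transcripts), libraries 3 to 6 of Soy-20% + SAA left out, each library left out and the replicate number as a block. For each member, the livers of each diet above the minimum of filterByExpr were counted. Every member was named at least once, with statistics for those with a mean of at least 10 in 1 diet and called, and for some not called. Context genes were named mostly by smallest adjusted p. Tested on simulated counts with 200 genes changed by 1 on the log2 scale, 183 (91.5%) were called for casein restriction over 11944 genes, with 6 others, and 167 (83.5%) for soy restriction over 11856 genes, with 8 others. The simulated libraries held no GC trend, so the soy numbers do not cover that of libraries 3 to 6 of Soy-20% + SAA. Total counts of 7694015 to 14565542 per library set the precision. The 16 further family symbols of GENCODE M21 were not analysed here. Python 3.11.15, numpy 2.4.6, pandas 2.3.3 and matplotlib 3.10.9 were used.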

Additional observations from a re-analysis of the deposited data

Results flagged for a closer look

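In 9 of 143 combinations of member and diet, 1 liver stood apart from the other 5 by Dixon's ratio (above 0.625), where chance flags about 1 group in 20. These were Cyp1a2 in Soy-20% liver 5 (5315 normalized counts), Cyp2b9 in Soy-20% liver 6 (74.8) and Soy-10% liver 6 (76.9), Cyp2c55 in Cas-20% liver 5 (4.98), Cyp2d40 in Cas-20% liver 2 (431), Cyp2e1 in Soy-20% liver 3 (37287), Cyp2f2 in Soy-20% liver 4 (14112), Cyp2j5 in Soy-20% + SAA liver 3 (9649) and Cyp2r1 in Soy-20% liver 3 (130). The last of these and Cyp2c55 and Cyp2d40 were low, and the others were high.

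The effect of casein restriction differed from that of soy restriction in 4 members by edgeR's test of the difference. The log2 differences, casein effect minus soy effect, were −1.66 for Cyp2a5, −0.84 for Cyp1a2, −0.67 for Cyp2f2 and −0.55 for Cyp2c29.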

How the results depend on the processing

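Of 47 called member values, 36 kept their call under every alternative with a test, and in these none reversed: 19 of 21 for casein restriction, 5 of 7 for soy restriction, 9 of 10 between restricted diets and 3 of 4 for the difference of effects. These counts include members whose lower diet did not pass the filter alone, such as Cyp2c69, Cyp2c40 and Cyp2a4 under casein restriction. Their values are given above as descriptions. Counts of called members for soy restriction were 11 with DESeq2, 12 with all 30 libraries in 1 fit and 6 to 11 leaving out single livers, against 7. For Soy-10% against Soy-20% they were 4 with DESeq2 and 0 to 2 leaving out single livers, against 1. For Soy-20% against Soy-20% + SAA they were 3 with DESeq2, 3 with all 30 libraries and 0 to 4 leaving out single livers, against 0. For Cas-20% against Soy-20% + SAA they were 0 with the GC slope covariate, 0 without libraries 3 to 6, 8 with all 30 libraries and 0 to 8 leaving out single livers, against 4. The causes were not tested. Replicate numbers did not pair the livers: same-number deviations correlated between −0.15 and 0.211, over 0.1 in 9 of 60 pairs. With the replicate block the counts were 20 for casein, 10 for soy, 0 for Soy-10% against Soy-20%, 0 for Soy-20% against Soy-20% + SAA, 2 for Cas-20% against Soy-20% + SAA, 13 between restricted diets, 5 for the difference of effects and 26 over 5 diets. In CPM, casein totals were 106% of control for Cyp2c, 113% for Cyp2d, 87.8% for Cyp2j and 101% for all members, against 92.7%, 99.4%, 77.0% and 88.7%. Without libraries 3 to 6 of Soy-20% + SAA (added after seeing the data), soy totals were 125% for Cyp2a and 114% for Cyp2g, against 102% and 67.2%. Chosen after seeing the data, CPM kept the direction of all 21 casein and 7 soy calls. Low counts limit Cyp2a4, Cyp2b9 and Cyp2c55.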
